A study of Mus musculus with 15 samples.

Results

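The 10 genes described here encode enzymes that break down threonine, cleave glycine, pass serine-derived carbon to folate, and make serine: Tdh, Gcat, Gldc, Amt, Shmt1, Shmt2, Mthfd2, Phgdh, Psat1 and Psph. They were taken as a named list from 23412 genes counted in every library, and all 10 were among the 14508 genes that passed the filter on low counts. The libraries were made from v6.5 cells, a male mouse embryonic stem cell (mESC) line kept on gelatin-coated dishes, and they were used to ask how expression depends on STAG1 and STAG2, the alternative accessory subunits of the cohesin ring.

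Mouse ESCs express threonine dehydrogenase at a high level. TDH oxidises threonine in the mitochondrion and GCAT splits the product with coenzyme A into glycine and acetyl-CoA, so threonine feeds both the glycine cleavage system and the acetyl-CoA pool, and mouse ESCs are known to depend on threonine in the medium. The glycine cleavage system, whose subunits include GLDC and AMT, and the serine hydroxymethyltransferases then load one-carbon units onto folate. The human TDH gene is a pseudogene.

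The 15 libraries formed 5 groups of 3, and each well received 50 nM of siRNA for 48 h, the controls included. WT siGLO was wild-type cells with the non-targeting siGLO control, and WT siStag1 was the same cells with siRNA against Stag1. Stag1-KO siGLO and Stag2-KO siGLO were cells with CRISPR/Cas9 deletions in Stag1 or Stag2 and the siGLO control. Stag2-KO siStag1 was the Stag2-KO line with Stag1 siRNA, called dual depletion below. Each knockout was 1 clone, so an effect of the gene and one of the clone cannot be told apart. Nothing in the labels says that the 3 replicates were grown apart, and p-values measure only the spread between these libraries.

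Between 14982560 and 19070126 reads per library were assigned to genes, and the 10 genes had from 574 to 11124 counts each in a library. Stag2 counts fell in both groups with the Stag2-KO genotype (log2 fold change −1.75 and −1.36 against WT siGLO), and Stag1 counts fell with Stag1 siRNA (−2.28 in wild-type and −1.53 in Stag2-KO cells, each against the same genotype with siGLO). In Stag1-KO cells Stag1 was at 2023 ± 300.2 normalized counts (SD, n = 3) against 2146 ± 138 in WT siGLO. The clone carries a short in-frame deletion inside 1 exon, so the count of its transcript does not check that label. All 9 ESC markers tested were expressed in every group, including Pou5f1 and Nanog, while the 7 fibroblast markers summed to 288 to 647 normalized counts per library, against 65030 to 116100 for the ESC markers, and 2 or 3 of the 7 stayed at 3 counts or fewer in every library of a group. Normalized counts below are scaled to the mean library, and fold changes are on the log2 scale from edgeR's quasi-likelihood test over all 15 libraries with Benjamini-Hochberg adjustment over all genes tested (called past an adjusted p of 0.1).

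In WT siGLO cells the genes differed widely in level when compared per kilobase of exon. Phgdh was at 131 ± 5.75 CPM per kilobase (counts scaled for library size, SD, n = 3), Tdh at 125 ± 12.6 and Psat1 at 116 ± 21.1, and these 3 overlapped within their spread. Shmt2 (75.4 ± 6.5) and Gldc (51 ± 2.42) came next on the same scale. Amt, Shmt1 and Mthfd2, at 35.4, 35.2 and 34.9, did not differ beyond their spread, and Gcat (27.4 ± 0.376) and Psph (14.6 ± 1.45) stood at the bottom. By this level per kilobase Tdh exceeded 97.9% of the 14403 tested genes that had an exon length, and Psph exceeded 75.2%.

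**Figure D1:**
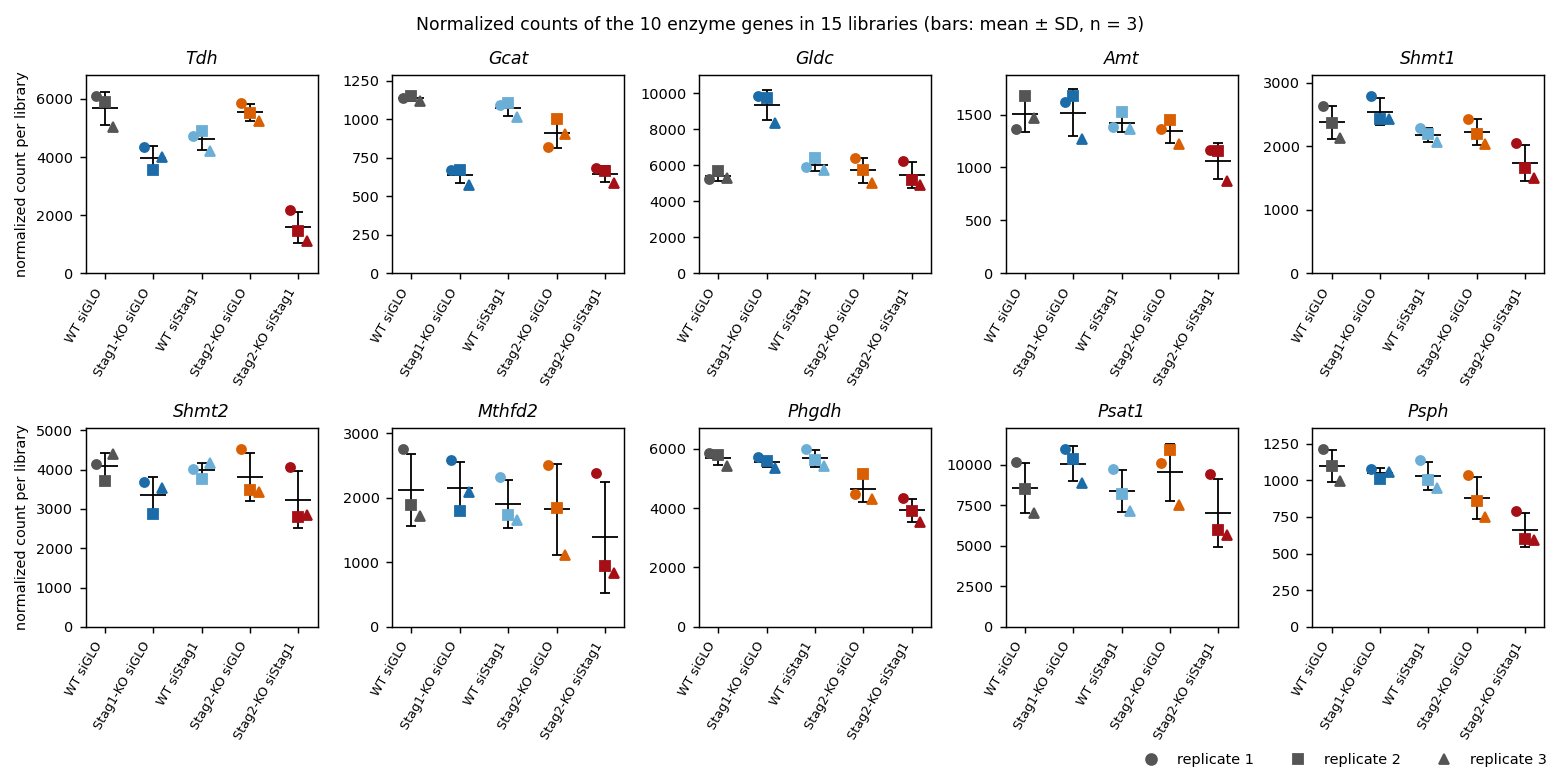
Normalized counts (vertical axes, starting at 0) of each gene in the 15 libraries, by group, with marker shape for the replicate number and bars for the mean ± SD of 3 libraries. Tdh in dual depletion lies between 1126 and 2169, below all 12 other libraries, and Gldc in Stag1-KO cells lies between 8370 and 9865, above all 12 others.

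Tdh, the first step of threonine breakdown, showed the largest change among the 10 genes, and only when both STAG proteins were reduced did it fall by more than 1 log2 unit. The gene lies on the minus strand at chr14:63492347-63509092 (mm10), and its exons share 66 bases with Gm17232, an antisense gene whose reads cannot be told apart without strand. WT siGLO libraries held 6107, 5897 and 5023 normalized counts. Stag2-KO siGLO libraries held 5854, 5505 and 5255, within the wild-type range. Dual depletion held 2169, 1465 and 1126, all far under either. Against WT siGLO the dual depletion was −1.84 (SE 0.17, adjusted p = 7.37e-07 from edgeR), a level of 0.28 of wild type, and against Stag2-KO siGLO it was −1.80 (SE 0.17, adjusted p = 1.24e-05).

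Stag1-KO cells held 4358, 3567 and 3987 normalized counts of Tdh, below every WT siGLO library, and the log2 fold change was −0.52 (SE 0.16, adjusted p = 0.0461 from edgeR). That call was lost when WT siGLO replicate 1, WT siGLO replicate 2 or Stag1-KO replicate 2 was left out, with an adjusted p of up to 0.149. WT siStag1 cells held 4715, 4898 and 4219, also below every WT siGLO library. Their difference of −0.30 did not pass the test (95% interval −0.65 to 0.047, adjusted p = 0.872 from edgeR). Ordered by mean, Tdh went from 5676 in WT siGLO and 5538 in Stag2-KO, which overlapped, to 4611 in WT siStag1, 3971 in Stag1-KO and 1586 in dual depletion. The WT siStag1 and Stag1-KO libraries overlapped each other, and neither overlapped dual depletion.

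The effect of Stag1 siRNA on Tdh differed between genotypes. Stag1 siRNA lowered Tdh to 0.287 of its level in Stag2-KO cells, while in wild-type cells the ratio was 0.812. The difference of these effects was −1.50 (SE 0.23, adjusted p = 0.0146 from edgeR), and of the 10 genes only Tdh passed this test. Over all genes tested, 0.159% passed (23 genes). The other 9 had differences from −0.42 (Gcat) to −0.20 (Shmt2), all negative, with adjusted p of at least 0.512 from edgeR, which does not show that the effects were equal.

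Taken library by library within each replicate number, Tdh in dual depletion was at 0.355, 0.248 and 0.224 of the same-numbered WT siGLO library, and at 0.371, 0.266 and 0.214 of the same-numbered Stag2-KO library. Replicate numbers were not taken as pairs in the comparison with WT siGLO. Dual depletion overlapped neither group, so any pairing would give lower values. All 3 numbers were lower, by least in replicate 1. That library, Stag2-KO siStag1 replicate 1, also stood apart in Nanog, a pluripotency factor, with 587 normalized counts against 2342 and 2181 in replicates 2 and 3. Replicate 1 was also the lowest in Nanog among the Stag2-KO siGLO libraries, at 2540 against 4913 and 4885.

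Gcat encodes the second enzyme of threonine breakdown and lies on the plus strand at chr15:79030874-79038353 (mm10). It fell in both knockout clones and in dual depletion. WT siGLO libraries held 1137, 1153 and 1122 normalized counts, the tightest group of any of the 10 genes. Stag1-KO libraries held 668, 670 and 577, and dual depletion held 683, 662 and 584. These groups overlapped each other and lay below all 9 libraries of the remaining groups. Stag2-KO siGLO libraries, at 819, 1005 and 904, stood between them and wild type without overlap with either side.

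The log2 fold changes of Gcat against WT siGLO were −0.83 in Stag1-KO (SE 0.097, adjusted p = 3.02e-05 from edgeR), −0.32 in Stag2-KO (SE 0.096, adjusted p = 0.0263) and −0.82 in dual depletion (SE 0.097, adjusted p = 9.3e-06). WT siStag1 libraries, at 1096, 1109 and 1013, were −0.085 from wild type (95% interval −0.29 to 0.12, adjusted p = 0.999). Stag1 siRNA in Stag2-KO cells lowered Gcat by −0.50 (SE 0.097, adjusted p = 0.00729 from edgeR), a call lost when only the libraries of those 2 groups entered the fit (adjusted p = 0.116, the highest of 23 alternatives, the lowest being 9.4e-05).

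Genes around Gcat fell with it in the Stag1-KO clone. Of the 5 tested genes on each side, 8 of 10 fell and none rose, with a median log2 fold change of −0.72, where 9.93% of all genes fell. H1f0, a linker histone gene and the nearest neighbour of Gcat, fell by 1.33 (adjusted p = 3.35e-07 from edgeR). Eif3l, a translation initiation factor subunit, fell by 0.81, and Ankrd54 fell by 0.73. Lgals1 was at 0.51 and Triobp at −0.46, neither of them past the test.

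In Stag2-KO cells, none of the 10 neighbours fell and 1 rose, Polr2f, with a median of 0.077. In dual depletion none fell and 1 rose, with a median of 0.026, where Gcat itself was lower by −0.82. Distance bins were drawn after these values were seen. Within 0.5 Mb of the Gcat start site in Stag1-KO cells, 23 of 29 tested genes fell and 0 rose (median −0.79), and from 0.5 to 1 Mb 5 of 21 fell and 2 rose (median 0.0025). From 1 to 2 Mb 5 of 21 fell and 2 rose (median −0.020), among them Txn2 (−0.88), Eif3d (−0.74) and Foxred2 (−0.60), and from 2 to 3 Mb 2 of 64 fell and 12 rose (median 0.12). Within 0.5 Mb, 5 of 29 fell and 2 rose in Stag2-KO cells (median −0.029), and 9 fell and 2 rose in dual depletion (median −0.092). Besides Gcat, Lgals2, Kdelr3, Tmem184b, Csnk1e and Kcnj4 fell in all 3 comparisons, which share the WT siGLO libraries. All genes named from these bins were chosen after their values were seen. DNA copy number was not measured in these libraries, and its part in the Stag1-KO value of Gcat was not tested.

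**Figure D2:**
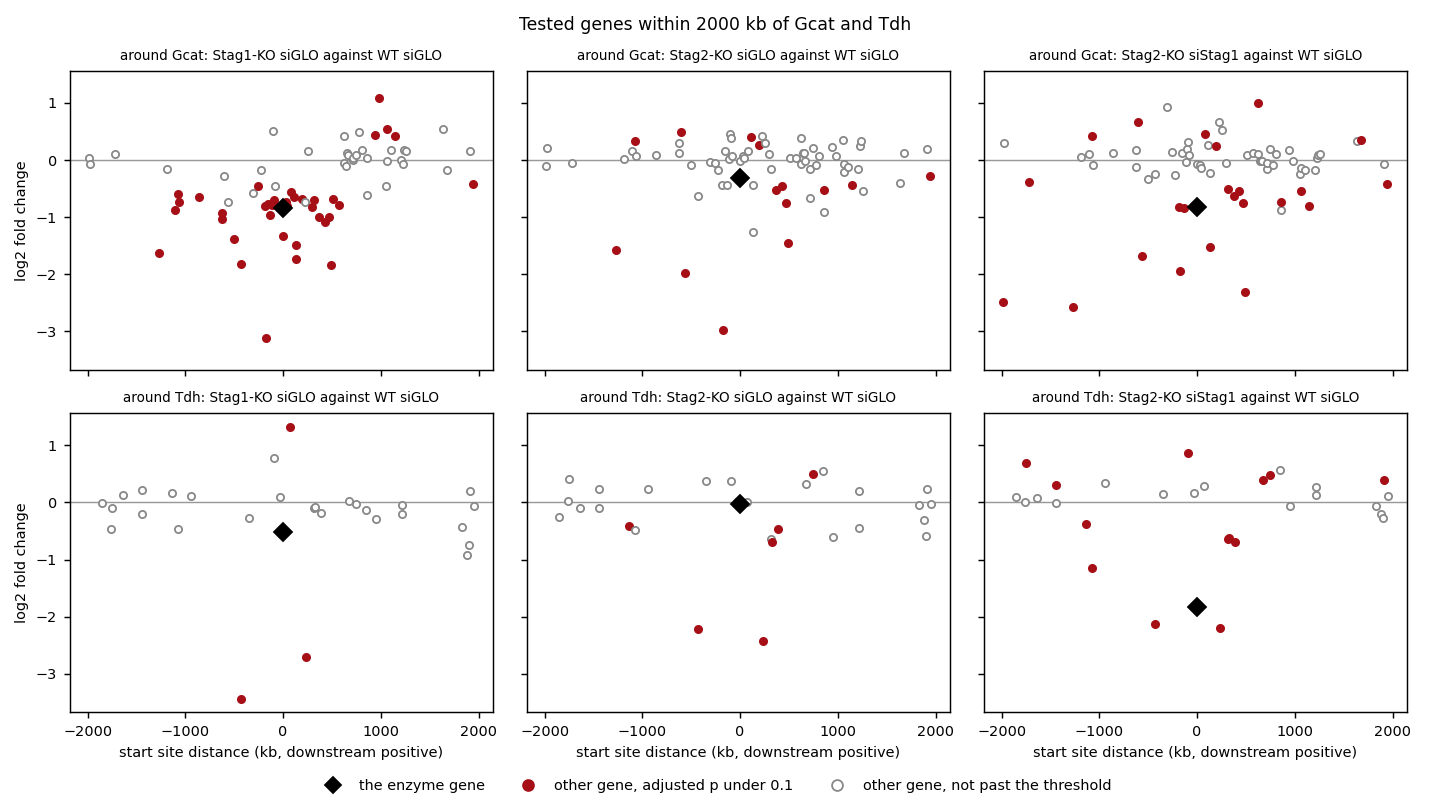
log2 fold change against WT siGLO (vertical axis) of every tested gene whose start lies within 2 Mb of Gcat (top) or Tdh (bottom), by start site distance in kb (horizontal axis), for Stag1-KO, Stag2-KO and dual depletion. Filled circles passed an adjusted p of 0.1, and the diamond is the named gene. Around Gcat the filled circles crowd below 0 in Stag1-KO, where 23 of 29 genes within 0.5 Mb fell, against 5 in Stag2-KO and 9 in dual depletion.

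In dual depletion against WT siGLO 5 of the 10 neighbours of Tdh fell (Ctsb −0.69, Fdft1 −0.62, Neil2 −0.65, Gata4 −2.21 and Sox7 −2.12) and 1 rose (Xkr6, 0.86). Over all genes tested, 21.3% fell there. In Stag2-KO cells 4 of the 10 fell and 0 rose, beside 14.4% of all genes lower, and in Stag1-KO cells 2 fell and 1 rose, beside 9.93%. In dual depletion against Stag2-KO, where Tdh was at −1.80, 0 fell and 0 rose, with a median of 0.096. Gata4 and Sox7 encode transcription factors of primitive endoderm. They were lower in both single knockouts too (Gata4 −2.70 in Stag1-KO and −2.42 in Stag2-KO, Sox7 −3.44 and −2.22), where Tdh was at −0.52 and −0.035.

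Of the glycine cleavage genes, Gldc rose in Stag1-KO cells and Amt fell in dual depletion. Gldc, the decarboxylase subunit (minus strand, chr19:30098447-30175429), rose in Stag1-KO cells, as did none of the other 9 genes in either knockout unless the replicate block was used, which added Psat1 in Stag1-KO cells. Stag1-KO libraries held 9865, 9754 and 8370 normalized counts, and WT siGLO libraries 5224, 5698 and 5287. The groups did not overlap, and the difference was 0.79 (SE 0.11, adjusted p = 0.000114 from edgeR), or 1.73-fold. WT siStag1 libraries (5918, 6402 and 5742) all lay above WT siGLO, with log2 ratios of 0.18, 0.17 and 0.12 to the same-numbered libraries. Stag2-KO (6420, 5721 and 5040) and dual depletion (6257, 5179 and 4930) overlapped wild type.

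None of these last 3 Gldc differences passed the test. The intervals were −0.066 to 0.38 for WT siStag1, −0.14 to 0.31 for Stag2-KO and −0.21 to 0.24 for dual depletion, which all exclude a change of the size seen in Stag1-KO cells. Stag1-KO against Stag2-KO gave 0.70 for Gldc (SE 0.11, adjusted p = 0.000292 from edgeR). Of the 10 genes next to Gldc, 2 fell and none rose in Stag1-KO cells, and their median was 0.0065.

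Amt, the aminomethyltransferase of the same complex (plus strand, chr9:108296853-108302302), fell in dual depletion. WT siGLO libraries held 1360, 1677 and 1465 normalized counts, and dual depletion libraries 1161, 1159 and 868, all below wild type. The difference was −0.50 (SE 0.13, adjusted p = 0.00623 from edgeR). In Stag1-KO (1616, 1672 and 1268) and Stag2-KO (1364, 1447 and 1225) libraries Amt overlapped wild type, at 0.017 and −0.16, and neither passed the test. Gcsh and Dld, the remaining subunits of the glycine cleavage system, were −0.43 (SE 0.09) and −0.34 (SE 0.079) in dual depletion (adjusted p = 0.0015 and 0.00339 from edgeR). They also fell in Stag1-KO cells, by 0.45 and 0.22 (adjusted p = 0.00341 and 0.0742), where Gldc rose.

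The 250 bases before the RefSeq start were read for Gcat, the gene that was lower in both knockouts and in dual depletion, and for Gldc, the gene that rose (GRCm38.p6, chr15:79030624-79030873 on the plus strand and chr19:30175442-30175691 on the minus strand, each written 5′ to 3′ on the strand of its gene). Capitals mark GGGCGG (a GC box) and CCAAT in either orientation.
Gcat: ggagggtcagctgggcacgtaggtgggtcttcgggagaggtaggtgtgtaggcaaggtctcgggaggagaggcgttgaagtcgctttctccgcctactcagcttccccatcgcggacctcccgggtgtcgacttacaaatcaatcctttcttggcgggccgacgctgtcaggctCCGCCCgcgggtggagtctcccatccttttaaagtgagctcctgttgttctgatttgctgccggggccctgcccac
Gldc: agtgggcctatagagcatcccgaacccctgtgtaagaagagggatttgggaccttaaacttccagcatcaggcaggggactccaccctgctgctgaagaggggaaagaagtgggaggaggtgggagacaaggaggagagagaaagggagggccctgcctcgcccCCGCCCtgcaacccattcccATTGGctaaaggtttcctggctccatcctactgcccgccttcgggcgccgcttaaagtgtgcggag
Both windows held a GC box and Gldc also held a CCAAT box. RefSeq windows were found for 9 of the 10 genes, with 2 for Psat1 and none read for Tdh. GGGCGG was in 6 of these 10 windows, against 32.7% of all 32851 windows of the same length, and CCAAT was in 7, against 33.8%. TGATGNAA, the letters of an ATF4 response element, was in 0 of the 10 and in 3.45% of all windows, and CACGTG was in 0 of the 10 and in 6.02% of all. All motifs were searched on both strands as letters only, and no overlap among them was removed. CpG counts ran from 3 (Amt) to 24 (a Psat1 window), with a median of 6 over all windows.

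Serine hydroxymethyltransferases convert serine to glycine and load a carbon onto folate, SHMT1 in the cytosol and SHMT2 in the mitochondrion. Shmt1 (minus strand, chr11:60788104-60811718) fell in dual depletion. It had 2640, 2360 and 2129 normalized counts in WT siGLO libraries and 2045, 1664 and 1500 in dual depletion, with no overlap. The difference was −0.45 (SE 0.11, adjusted p = 0.00557 from edgeR). In the single knockouts and WT siStag1 it lay between −0.12 and 0.10, and none of the 3 passed.

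Shmt2 (minus strand, chr10:127517123-127522444, with 32 exon bases shared with Ndufa4l2 on the opposite strand) fell less firmly. WT siGLO libraries held 4133, 3705 and 4402 and dual depletion libraries 4066, 2792 and 2850, where replicate 1 stood inside the wild-type range. The difference of −0.33 (SE 0.14, adjusted p = 0.0799 from edgeR) was lost in 6 of 23 alternatives, with an adjusted p from 0.0042 to 0.271. Among these were the fits without WT siGLO replicate 1, WT siGLO replicate 3, Stag2-KO siStag1 replicate 2 or Stag2-KO siStag1 replicate 3. Stag1-KO libraries (3692, 2861 and 3538) were all below wild type, at −0.28 (95% interval −0.58 to 0.025, adjusted p = 0.223). With the replicate number as a block this passed (adjusted p = 0.0454, the lowest of its 23 alternatives, which reached 0.529).

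Mthfd2, the mitochondrial dehydrogenase and cyclohydrolase that follows SHMT2 (minus strand, chr6:83305691-83325908), varied most between replicates. WT siGLO libraries held 2749, 1893 and 1719 normalized counts, and dual depletion libraries 2383, 942 and 835. Replicate 1 of dual depletion exceeded 2 of the 3 wild-type libraries, while replicates 2 and 3 were below all of them. The difference was −0.61 (95% interval −1.33 to 0.11, adjusted p = 0.173 from edgeR). Without Stag2-KO siStag1 replicate 1 it was −1.25 (adjusted p = 0.00208, the lowest of 23 alternatives, which reached 0.476). Pooled within groups, the SD of log2 counts was 0.51 for Mthfd2 and 0.10 for Phgdh, the smallest of the 10.

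The serine synthesis genes act in the order Phgdh, Psat1 and Psph, and Phgdh and Psph fell in Stag2-KO cells and in dual depletion. Phgdh, whose product draws 3-phosphoglycerate out of glycolysis (minus strand, chr3:98313170-98339990), had 5869, 5782 and 5401 normalized counts in WT siGLO. Stag2-KO libraries held 4470, 5136 and 4298 and dual depletion libraries 4328, 3917 and 3540, all below wild type. The differences were −0.29 (SE 0.087, adjusted p = 0.0261 from edgeR) and −0.53 (SE 0.088, adjusted p = 0.000206). The former was lost when Stag2-KO replicate 3 was left out (adjusted p = 0.105, the highest of 23 alternatives, the lowest being 0.00348). Stag1-KO and WT siStag1 libraries were at −0.032 (95% interval −0.22 to 0.15) and −0.0029 (−0.19 to 0.18), and neither passed.

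Psph, the phosphatase that releases serine (minus strand, chr5:129765558-129787449), had 1210, 1097 and 992 normalized counts in WT siGLO and 792, 597 and 592 in dual depletion. The groups did not overlap, and the difference was −0.74 (SE 0.13, adjusted p = 0.000446 from edgeR). Stag2-KO libraries held 1034, 860 and 748 and overlapped wild type. Their difference of −0.32 (SE 0.13, adjusted p = 0.0948 from edgeR) was lost in 15 of 23 alternatives, DESeq2 among them, with adjusted p from 0.008 to 0.304. The libraries whose omission lost it were WT siGLO replicates 1 and 2, Stag2-KO replicates 2 and 3, all 3 of Stag1-KO, WT siStag1 replicates 2 and 3, and Stag2-KO siStag1 replicate 2. Exons of Psph and of Cct6a on the opposite strand share 452 bases, as do those of Shmt1 and Smcr8 (184 bases), and whether the counting used strand was not given. Cct6a itself was at −0.16 in dual depletion (adjusted p = 0.268 from edgeR).

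Psat1, the aminotransferase between them (minus strand, chr19:15904678-15947337), passed no test against WT siGLO in the fit of all 15 libraries without the replicate block. WT siGLO libraries held 10170, 8523 and 7053 normalized counts, Stag2-KO libraries 10140, 10930 and 7537, and dual depletion libraries 9455, 5973 and 5671. All 3 groups overlapped. The difference was 0.15 in Stag2-KO (95% interval −0.25 to 0.55) and −0.29 in dual depletion (−0.69 to 0.11), and neither passed the test. Without Stag2-KO siStag1 replicate 1 the latter was −0.56 (edgeR adjusted p = 0.0166, the lowest of 23 alternatives, which reached 0.61). In Stag1-KO cells Psat1 was at 0.23 (95% interval −0.17 to 0.63, adjusted p = 0.477 from edgeR), and with the replicate block at an adjusted p of 0.0937, the lowest of its 23 alternatives, which reached 0.80.

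**Figure D3:**
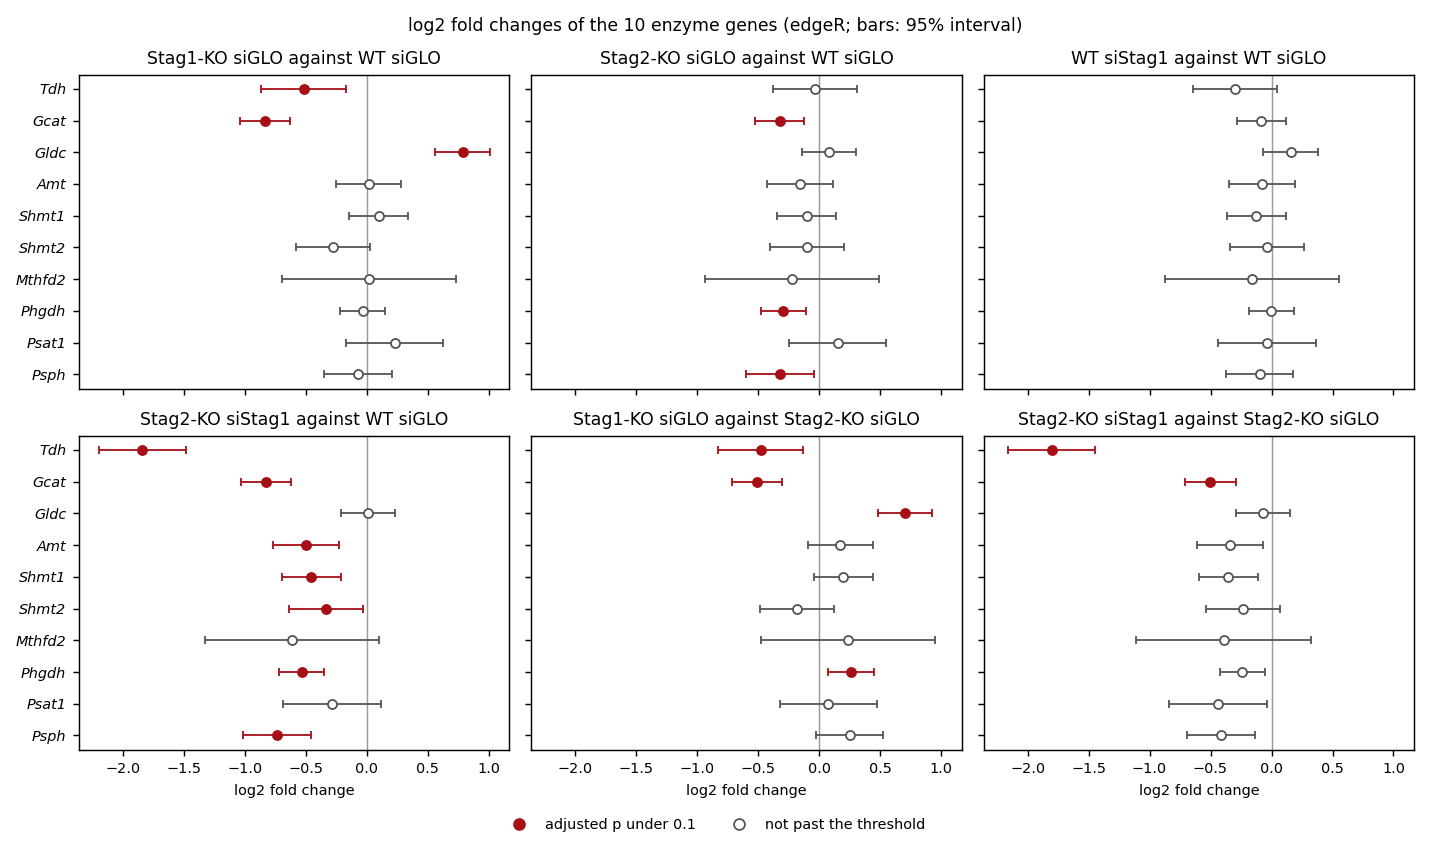
log2 fold changes (horizontal axis) of the 10 genes in 6 comparisons, with 95% intervals from the edgeR fit. Filled points passed an adjusted p of 0.1. In dual depletion against WT siGLO 7 genes are filled and all lie left of 0, while no point is filled for WT siStag1.

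Counted over the 10 genes, dual depletion changed the most. Against WT siGLO 7 of 10 passed, all lower (Tdh, Gcat, Amt, Shmt1, Shmt2, Phgdh and Psph), where 43.9% of all genes tested passed and 21.3% were lower. Their median log2 fold change was −0.52, beside 0.0055 over all genes. Without Stag2-KO siStag1 replicate 1, 9 of 10 passed, all lower, beside 42.3% of all genes. That was the highest count with 1 library left out, and the lowest was 6, without WT siGLO replicate 1.

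In Stag1-KO cells 3 of 10 passed (Gldc higher, Tdh and Gcat lower), where 20% of all genes passed, and the medians were −0.0074 for the 10 and −0.013 for all genes. With the replicate block 5 of 10 passed, beside 30.6%, the additions being Shmt2 and Psat1. In Stag2-KO cells 3 of 10 passed, all lower (Gcat, Phgdh and Psph), where 28.3% of all genes passed and 14.4% were lower (39.4% passed with the block, and again 3 of the 10). Leaving out Stag2-KO replicate 3 left 1 of these 3.

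Acute Stag1 siRNA in wild-type cells changed none of the 10 by edgeR, where 0.248% of all genes passed. None of the 10 had an unadjusted p under 0.05, and DESeq2 also called 0 of 10. With the replicate block 1.63% of all genes and again 0 of the 10 passed, and 1, Tdh, had an unadjusted p under 0.05 (adjusted p = 0.384 from edgeR with the block, within a range of 0.245 to 1 over 23 alternatives). Tdh was lower in all 3 same-numbered pairs. The comparisons with WT siGLO share those 3 control libraries, so their counts are not independent.

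Set directly against Stag2-KO cells, Stag1-KO cells had higher Gldc (0.70) and Phgdh (0.26, SE 0.087, adjusted p = 0.0473 from edgeR) and lower Tdh (−0.48, SE 0.16, adjusted p = 0.0525) and Gcat (−0.51, SE 0.097, adjusted p = 0.00184). These 4 of 10 stood beside 25.7% of all genes. Tdh and Phgdh each lost the call in 5 of 23 alternatives, with adjusted p of up to 0.181 and 0.161. For Tdh the libraries whose omission did so were Stag1-KO replicates 2 and 3 and Stag2-KO replicates 1 and 2, and for Phgdh they were replicates 1 and 2 of Stag1-KO and 1 and 3 of Stag2-KO. Without Stag1-KO replicate 2, 2 of 10 passed. With the replicate block 6 of 10 passed, beside 37.3% of all genes, and the additions were Shmt1 (0.20, adjusted p = 0.0311 with the block, and 0.241 without) and Psph (0.25, adjusted p = 0.0284 with the block, and 0.202 without). Over 23 alternatives the adjusted p reached 0.523 for Shmt1 and 0.514 for Psph.

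Adding Stag1 siRNA to Stag2-KO cells lowered Tdh and Gcat, 2 of 10, where 6.37% of all genes passed and 3.39% were lower. All 10 genes had a negative log2 fold change, from −1.80 to −0.07, with a median of −0.37 beside 0.006 over all genes, and 7 of 10 had an unadjusted p under 0.05. Psph (−0.42, adjusted p = 0.101 from edgeR) and Shmt1 (−0.35, adjusted p = 0.105) missed the threshold by little. Replicate numbers were taken as pairs here because same-numbered libraries deviated together in these counts (lowest r 0.30), not from the labels. With that block 7 of 10 passed, all lower, beside 14.1% of all genes. The additions were Shmt1 (adjusted p = 0.00278 with the block), Psph (0.00574), Psat1 (0.00861), Amt (0.0206) and Phgdh (0.0345). Over their 23 alternatives the adjusted p of these 5 reached 0.358 to 0.633. Without Stag2-KO siStag1 replicate 1, 8 of 10 passed, beside 10.1% of all genes. With only the libraries compared in the fit, Gcat lost its call.

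Libraries of the same replicate number deviated together in these genes. For 8 of the 10 genes replicate 1 had the highest mean deviation from its group mean over the 5 groups, and for 9 of the 10 replicate 3 had the lowest. Mthfd2 in replicate 1 was 0.50 log2 units above the group mean, in 5 of 5 groups, and in replicate 3 it was 0.34 below, in 5 of 5. For Psat1 these were 0.24 above and 0.25 below, again in 5 of 5 groups. In 43 of the 45 pairs of genes, deviations from the group means correlated positively over the 15 libraries, with a median r of 0.68. The libraries share groups and replicate numbers, and the r is a description. The labels do not say what a replicate number marks.

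**Figure D4:**
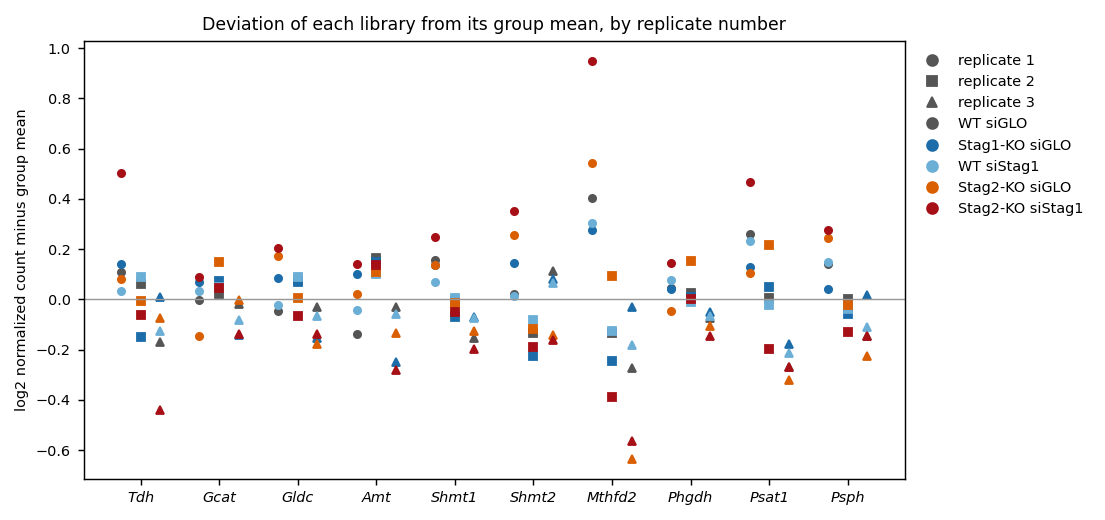
Deviation of each library from its group mean in log2 normalized counts (vertical axis), for the 10 genes (horizontal axis), with marker shape for the replicate number and colour for the group. Replicate 1 of dual depletion stands highest for Tdh, Mthfd2 and Psat1, and Mthfd2 is spread most widely.

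Beyond the 10, other genes of the same pathways were counted on lists. Of 14 tested genes of threonine, serine and glycine metabolism outside the 10, 2 rose and 7 fell in dual depletion, with a median of −0.31, 1 rose and 4 fell in Stag2-KO, and 0 rose and 2 fell in Stag1-KO. Over all genes tested, 22.6% rose and 21.3% fell in dual depletion, 13.9% and 14.4% in Stag2-KO, and 10.1% and 9.93% in Stag1-KO, and the lists below stand beside the same shares. Besides Gcsh and Dld, the genes lower in dual depletion included Glyctk, glycerate kinase (−1.13, SE 0.20, adjusted p = 0.00048 from edgeR), and Gnmt, glycine N-methyltransferase (−1.27, SE 0.28, adjusted p = 0.00206). Gatm, which uses glycine to make the creatine precursor, rose by 1.71 (SE 0.28, adjusted p = 0.000188). Tha1, threonine aldolase, fell by 0.93 (adjusted p = 0.0245) from a mean of only 40.0 normalized counts.

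Of 18 tested folate genes, 6 rose and 3 fell in dual depletion, with a median of 0.05, and over all genes 22.6% rose and 21.3% fell. Mthfd1, the cytosolic trifunctional folate enzyme, fell from 9381, 9933 and 9819 normalized counts in WT siGLO to 7662, 6712 and 6347, without overlap (−0.49, SE 0.082, adjusted p = 0.00023 from edgeR). Mthfd1l and Mthfd2l, mitochondrial relatives of Mthfd1 and Mthfd2, rose by 0.35 (SE 0.095, adjusted p = 0.00986) and 1.13 (SE 0.24, adjusted p = 0.00151).

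Of 7 tested genes of the methionine cycle and transsulfuration, 1 rose (Mat2a) and 3 fell in dual depletion. Cbs and Cth, the steps that take serine into cysteine, were lower, at −1.38 (SE 0.23, edgeR adjusted p = 0.000224) and −1.30 (SE 0.33, edgeR adjusted p = 0.00531). Cth had 1280, 572 and 414 normalized counts in dual depletion and 2447, 1695 and 1448 in WT siGLO, and replicate 1 was again the highest of each group.

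On a list of 20 genes of ATF4 and the amino acid response, which is known to act on Phgdh, Psat1, Shmt2 and Mthfd2, 2 rose and 5 fell in dual depletion, 1 rose and 2 fell in Stag2-KO, and 1 rose in Stag1-KO. The share that fell in dual depletion, 5 of 20, was near the 21.3% of all genes. Asns, asparagine synthetase, fell from 9265, 8264 and 7529 to 4479, 3194 and 2965 normalized counts (−1.24, SE 0.15, adjusted p = 1.22e-05 from edgeR). Atf4 itself was at 0.035 (SE 0.31, adjusted p = 0.941). The list also held genes that rose, Slc7a11 (3.17, from a mean of 6.98 normalized counts) and Cebpb (0.99). With the replicate block the ATF4 list had 2 higher and 2 lower in Stag1-KO and 2 higher and 3 lower in Stag2-KO, and the folate list 1 and 1 in Stag1-KO and 6 and 2 in Stag2-KO. Over all genes in that fit, 15.3% were higher and 15.3% lower in Stag1-KO, and 19.9% and 19.6% in Stag2-KO. WT siStag1 changed no gene on any of these 4 lists by edgeR, with the block or without.

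Markers of cell state differed in the same comparisons. Of 9 ESC markers 7 fell and 0 rose in dual depletion, with a median of −1.05, and their summed normalized counts ran from 65030 to 83690 there, against 111300 to 116100 in WT siGLO. In Stag2-KO cells 4 of 9 fell (sum 87110 to 104600) and in Stag1-KO cells 1 of 9, or 3 with the replicate block (92060 to 106700). All 7 primitive endoderm markers fell in both knockouts and in dual depletion, from a sum of 4038 to 4441 in WT siGLO to 339 to 544, 733 to 1189 and 877 to 1158. Neural markers summed to 1113 to 1373 in WT siGLO, 1565 to 3180 in Stag2-KO and 2227 to 4128 in dual depletion, and in the latter 2 groups Nes and Pax6 rose, 2 of 4 tested. Sox1, on the same list, had a mean of 254 in dual depletion against 440.1 in WT siGLO, which did not pass, and fell in Stag1-KO to a mean of 58.4 (edgeR adjusted p = 0.004). Trophoblast markers summed to 278 to 416 in WT siGLO and to 664 to 939 in Stag1-KO, where 3 of 4 tested rose. In Stag2-KO they summed to 143 to 271 and 2 of 4 fell, and in dual depletion to 161 to 196 and 1 of 4 fell. Eomes, which is on both this list and the mesoderm list, made up most of the WT siGLO sum. Mesoderm markers, 5 tested, had 2 higher and 1 lower in Stag2-KO and in dual depletion. The part of these markers in the changes of the 10 genes was not tested, and in bulk libraries fewer cells of a type and less RNA per cell cannot be told apart.

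Over the 15 libraries, 5 of all tested genes were most like Tdh in pattern. These were Ntn1, a guidance ligand (Pearson r = 0.97 of log2 CPM), Lap3, an aminopeptidase (0.96), Nr5a2, a nuclear receptor expressed in ESCs (0.95), Crlf3 (0.94) and Mylpf, a muscle myosin light chain (0.94). The libraries fall in 5 groups, so each r mainly reflects group means. In dual depletion Ntn1 was at −2.28 (SE 0.18), Nr5a2 at −1.47 (SE 0.12) and Mylpf at −2.59 (SE 0.18) against WT siGLO. These genes were picked for their likeness to Tdh over the same libraries, so these values describe them and are no test.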

How the data were processed

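Poly(A) RNA-seq libraries were sequenced for 15 samples in 5 groups of 3, grouped by sample title. The authors deposited raw counts per gene. Per the labels, reads were aligned to mm10 with STAR and tested with DESeq2. The counting setting, annotation and use of strand are not given in the sources used here, so genes that share exons on opposite strands cannot be separated. Gcat shares 1132 exon bases with another annotated gene of the same symbol. Rows for unmapped, multimapping, ambiguous and unassigned reads (19.8 to 23.4% of each library's total) and blank names were left out of library sizes.

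The members and lists were chosen with earlier results of these data known. Named genes were the 10 enzymes, the called genes of 4 pathway lists, called neighbours (5 on each side), and the 5 genes most correlated with Tdh. Lgals1, Triobp, Atf4, Cct6a, the cell markers and the genes of the distance bins fall outside this rule and were named after their values were seen. The counts were filtered with filterByExpr (minimum count 10) and TMM-normalized, and fitted with edgeR 4.0.16 (R 4.3.3) by quasi-likelihood, 1 coefficient per group over all 15 libraries, with two-sided tests and a Benjamini-Hochberg threshold of 0.1. Intervals are 95% from the fit's SE. Positions and exon lengths came from GENCODE M21, where 21780 of 23412 symbols matched directly and 1277 by an older symbol. Promoter windows came from RefSeq. On simulated counts for Stag1-KO against WT siGLO (14325 genes), 148 of 198 genes changed 2-fold were called, and 17 of 14127 unchanged genes were. Simulated libraries were drawn independently, without deviations shared by replicate number and with few changed genes, so these rates need not hold for the data.

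Deviations from group means were compared between libraries over 11530 genes. Same-numbered libraries of a comparison all correlated above 0.1 in 5 comparisons (lowest r 0.13) and were taken as paired there. For dual depletion against WT siGLO the lowest r was 0.047, and for the difference of effects it was −0.092, so the numbers were not taken as pairs. No replicate pair within a group agreed within sampling noise (chi-square per degree of freedom 4.52 to 25.2 over 15 pairs). Alternatives were DESeq2 1.42.0, 2 other scalings, 2 other filters, a fit of only the libraries compared, a threshold of 0.05, a replicate block and leaving out each library.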

Additional observations from a re-analysis of the deposited data

Results flagged for a closer look

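The effect of Stag1 siRNA on Tdh differed between Stag2-KO and wild-type cells, with a log2 difference of −1.50 (SE 0.23, edgeR adjusted p = 0.0146), which put it among the results for a closer look because the difference of effects was itself tested. All 3 same-numbered library pairs were lower with siRNA in either genotype, at 0.371, 0.266 and 0.214 in Stag2-KO cells and at 0.772, 0.831 and 0.84 in wild-type cells. Under 23 alternatives the difference ran from −1.80 to −1.31 and the adjusted p reached 0.064.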

How the results depend on the processing

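Leaving out 1 library at a time, 2 to 3 of the 10 genes passed in Stag1-KO, 1 to 3 in Stag2-KO, 0 in WT siStag1, 6 to 9 in dual depletion against WT siGLO, 2 to 4 in Stag1-KO against Stag2-KO, 2 to 8 in dual depletion against Stag2-KO, and 1 for the difference of effects. Calls over all genes moved too, from 1915 to 3259, 2524 to 4564, 1 to 57, 5166 to 6746, 2539 to 4142, 416 to 1484 and 13 to 76 in that order. For dual depletion against Stag2-KO, 4 passed with DESeq2, with library size alone, with no filter and with at least 10 counts in every library, 1 with only the libraries compared, and 7 with the replicate block. Over all genes this comparison had 1192 calls with DESeq2, 911 with library size alone and 924 in the report. With the block 5 passed in Stag1-KO, where 3 did without it. For Stag1-KO against Stag2-KO these were 6 and 4, and for dual depletion against Stag2-KO 7 and 2. In Stag2-KO and in WT siStag1 the block left the number unchanged. For dual depletion against WT siGLO the same numbers were not taken as pairs, and the block gave 9, adding Mthfd2 (adjusted p = 0.004) and Psat1 (0.0222), where 53.7% of all genes passed and 26.3% were lower. Over the 10 genes and 7 comparisons, 26 leave-one-out values lost their call, 12 gained one, 30 changed sign and 982 did none of these, and under other settings 10 lost, 19 gained, 3 changed sign and 528 did none. The 3 were Phgdh in WT siStag1, 0.0022 with library size alone, 0.0066 with no filter and 0.0025 with the filter at 10. The sign changes with 1 library left out were all in values that passed no test, over these log2 ranges. Stag1-KO: Amt −0.057 to 0.13, Mthfd2 −0.13 to 0.25, Psph −0.14 to 0.0027. Stag2-KO: Tdh −0.12 to 0.020, Gldc −0.0068 to 0.17, Mthfd2 −0.52 to 0.037. WT siStag1: Amt −0.14 to 0.011, Shmt2 −0.10 to 0.021, Mthfd2 −0.32 to 0.075, Phgdh −0.042 to 0.033, Psat1 −0.16 to 0.11. Dual depletion: Gldc −0.097 to 0.082. Stag1-KO against Stag2-KO: Mthfd2 −0.016 to 0.55, Psat1 −0.067 to 0.19. Dual depletion against Stag2-KO: Gldc −0.18 to 0.019. Difference of effects: Mthfd2 −0.88 to 0.069. The causes were not tested. With 3 libraries a group, intervals of Mthfd2 and Psat1 span changes of the size seen in other members. Over all genes, WT siStag1 had 36 calls by edgeR and 133 by DESeq2, and the difference of effects 23 and 102 (13.0% and 24.5% of them higher).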
